A study of Mus musculus with 9 samples.

Results

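Sgk1, Ddit4, Tsc22d3, Fkbp5 and Nr3c1 are genes of the glucocorticoid response, and here they were followed in a cell line given an adenosine receptor agonist. They were taken as every probe set annotated with 1 of these 5 symbols and no other. The rule found 5 probe sets, 1 per gene, of the 12488 on the array. A probe set is a group of short probes to 1 transcript, and its signal is their summary on an array. These were 97890_at for Sgk1, 103460_at for Ddit4, 94212_at for Tsc22d3, 94297_at for Fkbp5 and 98818_at for Nr3c1. Across 9 arrays, Sgk1 rose within 30 min of treatment and lay below its untreated level at 120 min, Ddit4 was raised at both times, and the other 3 genes passed no test.

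The cells were TtT/GF, a mouse line of pituitary folliculostellate cells, the non-hormonal cells that form a gap junction-coupled network in the anterior pituitary. RNA was measured on Affymetrix MG_U74Av2 arrays in 3 groups of 3 replicate samples. One group was left without treatment, and the others received 10 µM NECA (5'-N-ethylcarboxamidoadenosine), an adenosine analog that activates adenosine receptors, for 30 min or for 120 min. All groups grew in medium with heat-inactivated fetal bovine serum. The labels name no glucocorticoid in any group, and no vehicle or time for the untreated cells, so handling and NECA cannot be told apart at either time. TtT/GF is a single established line, and the labels do not say whether the replicates were separate cultures, so p-values measure only the spread between these samples, which may be technical.

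Glucocorticoids act through the glucocorticoid receptor, encoded by Nr3c1, which waits in the cytosol in a chaperone complex and on binding hormone moves to the nucleus. There it binds paired half-sites in DNA and raises genes such as Sgk1, Ddit4, Tsc22d3 and Fkbp5. Some of these genes also have other inducers. Sgk1 encodes a serum- and glucocorticoid-regulated kinase, a relative of AKT that controls ion channels and transporters, and its messenger RNA is known to turn over quickly. Ddit4 encodes REDD1, which restrains the growth-promoting kinase complex mTORC1 through the TSC proteins and is induced by several stresses. Tsc22d3 encodes GILZ, an anti-inflammatory leucine zipper protein, and Fkbp5 encodes a co-chaperone that lowers the receptor's affinity for hormone. Folliculostellate cells are a known pituitary target of glucocorticoids.

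The array checks covered the whole series. The median signal per array was 37.4 ± 1.05 without treatment, 34.6 ± 0.96 after 30 min and 34.5 ± 1.56 after 120 min (SD, n = 3 each), and the exact permutation p was 0.1 for either time, the smallest that 3 against 3 arrays allow. RNA integrity was read from the control probe sets at either end of Gapdh, whose 3' over 5' ratio was 0.995 ± 0.028, 0.921 ± 0.038 and 0.947 ± 0.029 in the same order (SD, n = 3 each; exact permutation p = 0.1 and 0.2 against untreated). Every 30 min array had a lower ratio than every untreated array. A fit with this ratio as a covariate therefore cannot fully separate the ratio from NECA at 30 min. No pair of arrays held identical values. Of 15 folliculostellate markers on the array, Anxa1, Cst3 and Gja1 gave signals of 876 or more on every array. Krt18 gave between 151 and 274, Aldh1a1 between 79.9 and 185, and S100b between 21.2 and 65.4. Aldh1a2, Fgf2 and Sox2 stayed on all arrays below 20.5, the signal a probe set had to exceed on 3 arrays to be tested. Cd44 (9.44 to 71.6), Gfap (8.62 to 42.6), Krt8 (9.43 to 32.7) and Vim (9.01 to 32.5) had arrays on either side of 20.5. Of the 11 tested genes of that list 1 passed as higher at 30 min and 2 at 120 min, and 0 as lower. Among all 7851 tested probe sets, limma called 0.357% up and 0 down at 30 min, and 1.83% up and 1.54% down at 120 min. At an unadjusted p under 0.05, 2 of the 11 were higher and 1 lower at 30 min, and 3 higher and 0 lower at 120 min. Of the 7851, 304 were higher and 369 lower at 30 min, and 504 and 701 at 120 min. The list's median changes were -0.23 and 0.092. Il6 passed at both times, from an untreated signal of 2.21 ± 0.98 (SD, n = 3), far below 20.5, to 67.4 ± 25.4 and 329 ± 68.6, so it was tested only because of its treated arrays and its fold depends on the offset. Vegfa passed at 120 min (log2 change 1.13), but not with the Gapdh ratio as a covariate (0.92, adjusted p = 0.0771). The list's summed signal was 5601 to 5994 untreated, 5805 to 6124 at 30 min and 6246 to 7034 at 120 min. Of 15 markers of hormone cells, Tshb, Fshb, Gnrhr, Trhr and Chgb stayed below 20.5 throughout. Another 9, among them Prl, Lhb, Chga and Ghrhr, exceeded 20.5 on at least 3 arrays and were tested. The list's summed signal was 834 to 972 in untreated cells, 702 to 797 at 30 min and 656 to 909 at 120 min. Of the 9 tested genes 0 passed at either time (1 lower at an unadjusted p under 0.05 each time). For 11 leukocyte markers the summed signal was 958 to 1016, 1022 to 1161 and 1029 to 1252 in the same order. Ptprc, Adgre1, Itgam, Cd3e and Tyrobp were below 20.5 throughout, while Cd14, Laptm5, Lyz2 and Cd68 were among the 5 tested. Of 9 endothelial markers, 7 were below 20.5 on all arrays, and Pecam1 and Eng were tested (summed signal 567 to 700, 604 to 756 and 580 to 662). Of these lists 0 of 5 tested leukocyte genes and 0 of 2 tested endothelial genes passed (1 leukocyte gene was lower at 30 min and 1 higher at 120 min at an unadjusted p under 0.05). The part of these marker shifts in the results was not tested.

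To show the letters next to starts of Sgk1, Ddit4 and Tsc22d3, the 250 bases before annotated transcript starts are printed from RefSeq (GRCm38.p6), 5′ to 3′ on the gene's strand. Capitals mark matches to the glucocorticoid response element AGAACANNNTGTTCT, its half-site TGTTCT or the cAMP response element half-site TGACG, each searched on both strands. The half-sites are parts of the full elements, so their matches overlap. Windows were found for 4 of the 5 genes, with 6 starts for Sgk1, 3 for Tsc22d3 and 1 each for Ddit4 and Fkbp5. Sgk1 start 5 is shown for its full element, Sgk1 start 2 and Tsc22d3 start 2 for the cAMP half-site, Tsc22d3 start 3 for a lone glucocorticoid half-site, and Ddit4 as the gene with the larger rise.
Sgk1 start 5, chr10:21993640-21993889, plus strand: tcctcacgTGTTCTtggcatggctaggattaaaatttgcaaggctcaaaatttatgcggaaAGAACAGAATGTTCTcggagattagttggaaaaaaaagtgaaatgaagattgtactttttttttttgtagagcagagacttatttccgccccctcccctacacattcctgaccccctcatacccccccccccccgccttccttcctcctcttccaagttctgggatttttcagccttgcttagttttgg
Sgk1 start 2, chr10:21978422-21978671, plus strand: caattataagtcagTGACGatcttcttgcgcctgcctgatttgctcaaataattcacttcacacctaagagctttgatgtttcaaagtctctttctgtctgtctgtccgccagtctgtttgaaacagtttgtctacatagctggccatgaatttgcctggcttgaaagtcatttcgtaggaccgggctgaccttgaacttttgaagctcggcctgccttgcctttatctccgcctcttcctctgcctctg
Ddit4, chr10:59951771-59952020, minus strand: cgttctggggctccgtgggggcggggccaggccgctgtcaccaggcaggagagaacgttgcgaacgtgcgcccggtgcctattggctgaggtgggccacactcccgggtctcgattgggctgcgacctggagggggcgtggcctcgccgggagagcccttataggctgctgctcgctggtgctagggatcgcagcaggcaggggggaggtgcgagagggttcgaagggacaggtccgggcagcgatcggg
Tsc22d3 start 2, chrX:140548572-140548821, minus strand: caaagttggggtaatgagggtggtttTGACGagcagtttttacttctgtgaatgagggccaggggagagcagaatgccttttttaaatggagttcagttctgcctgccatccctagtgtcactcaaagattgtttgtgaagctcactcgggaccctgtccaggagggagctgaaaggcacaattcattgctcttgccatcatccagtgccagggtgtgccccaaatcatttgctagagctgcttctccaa
Tsc22d3 start 3, chrX:140600523-140600772, minus strand: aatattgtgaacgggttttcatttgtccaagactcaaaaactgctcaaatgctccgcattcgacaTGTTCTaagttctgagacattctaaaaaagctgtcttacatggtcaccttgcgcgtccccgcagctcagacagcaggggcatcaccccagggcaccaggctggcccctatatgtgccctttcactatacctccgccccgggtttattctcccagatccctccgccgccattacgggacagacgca

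Sgk1 start 5 held the full glucocorticoid response element at bases -189 to -175 from the start, counting the base before the start as -1. That 15-base pattern was present in 3 of 32851 windows of the same length, or 0.00913%. Another half-site lay at -242 to -237 of the same window, and lone half-sites lay upstream of Sgk1 starts 1 and 4. The glucocorticoid half-site was in 4 of the 11 windows of these genes and in 16.1% of all windows, so its presence alone is common. The cAMP half-site was in 2 of the 11 and in 17.8% of all windows. The full cAMP response element, TGACGTCA, was in 0 of the 11 and in 1.55% of all windows. The windows of Ddit4 and Fkbp5 held none of these letters, and their GC contents were 70.0% and 68.0%. A match is a description of these letters in this window, and which Sgk1 start the probe set reports was not tested.

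**Figure D1:**
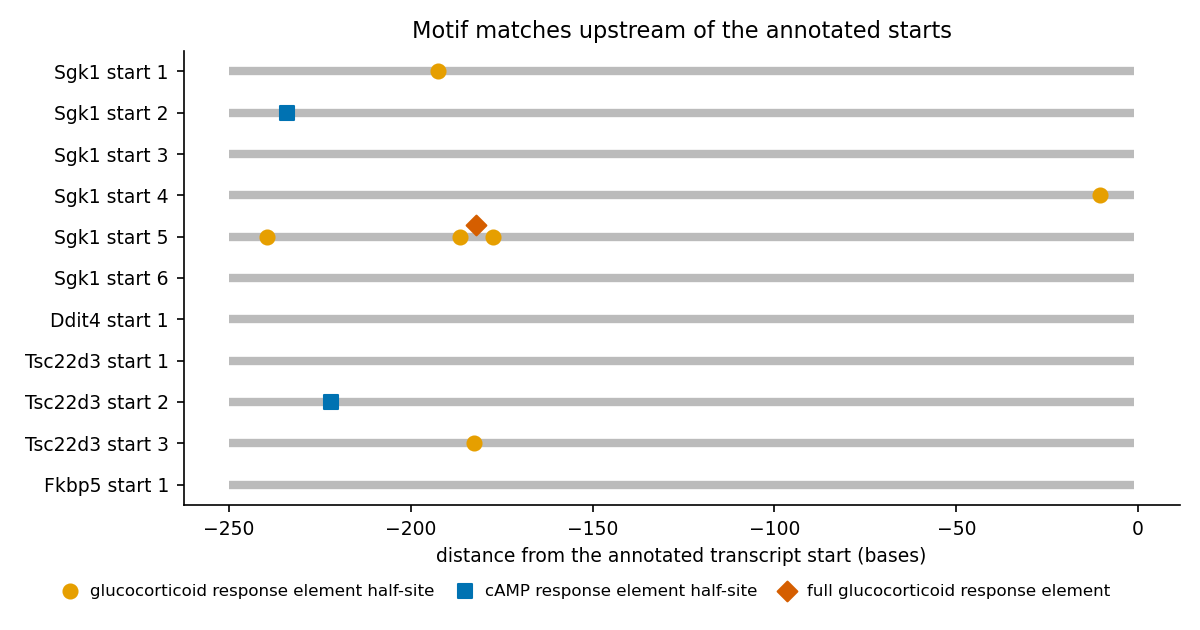
Each grey bar is the 250 bases before an annotated start, with the distance from the start in bases on the horizontal axis and the 11 starts in rows; markers give the centre of each motif match. The full glucocorticoid response element, drawn just above its bar, is at Sgk1 start 5, and 5 of the 11 windows have no match.

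Sgk1 was the gene whose direction differed between the times. Its signal was 245, 205 and 216 on the 3 untreated arrays, 380, 426 and 471 on the 30 min arrays, and 84.5, 91.0 and 99.7 on the 120 min arrays. All 30 min arrays were above all untreated arrays, all 120 min arrays were below them, and no values overlapped between groups. Among all tested probe sets, arrays failed to overlap upward for 6.11% and downward for 8.65% at 30 min, for 12.3% and 13.0% at 120 min, and for 7.44% and 9.07% from 30 to 120 min. The group means were 222 ± 20.7, 426 ± 45.9 and 91.7 ± 7.60 (SD, n = 3 each).

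On the scale used for testing, log2(signal + 7.93), Sgk1 changed by 0.91 ± 0.13 (SE) at 30 min, a 1.88-fold rise (95% interval 1.54 to 2.31, limma adjusted p = 0.00939). Among 7851 tested probe sets this was the 55th largest rise. It no longer passed when untreated replicate 2 (0.86, adjusted p = 0.0849) or untreated replicate 3 (0.90, adjusted p = 0.0533) was left out. Adjusting each array for its Gapdh ratio gave 0.70 ± 0.20, which did not pass either (adjusted p = 0.9275). That ratio was lower on every 30 min array than on every untreated array, so this fit cannot fully separate the ratio from NECA. Under it, the probe sets called up at 30 min went from 28 to 5. At 120 min Sgk1 was 2.31-fold below untreated, a log2 change of -1.20 ± 0.13 (adjusted p = 0.000231), the 41st largest fall. That call held in all 19 alternatives, with changes between -1.34 and -1.02. The difference between the times, tested directly, was -2.12 ± 0.13, a 4.34-fold fall from 30 to 120 min (adjusted p = 1.58e-06).

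Ddit4 was raised at both times. Signals were 267, 232 and 305 in untreated cells, 826, 773 and 977 at 30 min, and 469, 485 and 567 at 120 min. Every 30 min array was above every 120 min array, and every 120 min array was above every untreated array. The means were 268 ± 36.2, 859 ± 106 and 507 ± 52.5 (SD, n = 3 each).

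Its change at 30 min was 1.65 ± 0.14, or 3.14-fold (95% interval 2.53 to 3.91, limma adjusted p = 0.000164), the 8th largest rise among tested probe sets. It passed in all 19 alternatives, including the fit with the Gapdh ratio as a covariate. At 120 min the change from untreated was 0.90 ± 0.14, or 1.87-fold (95% interval 1.503 to 2.327, adjusted p = 0.0034), and it too passed in all 19. Between 30 and 120 min Ddit4 fell by 0.75 on the log2 scale (SE 0.14), a 1.68-fold decrease (adjusted p = 0.0133). It did not pass when NECA 120 min replicate 1 (-0.70, adjusted p = 0.0738) or replicate 2 (-0.72, adjusted p = 0.065) was left out.

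**Figure D2:**
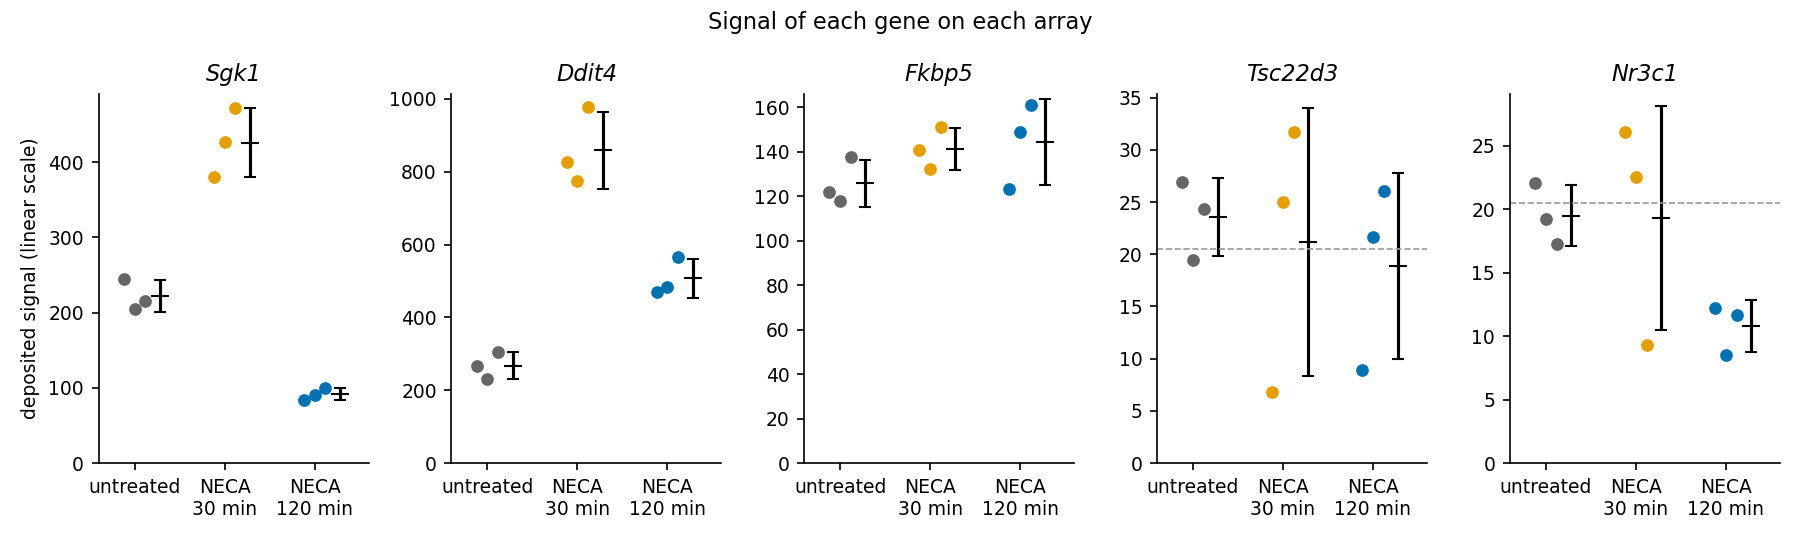
Points are the deposited signals of the 9 arrays on a linear axis from 0, with a panel per gene and the scale set per panel; bars beside them are the mean and SD of 3 arrays, and the dashed line in the Tsc22d3 and Nr3c1 panels is the level of 20.5 used by the low-signal filter. Sgk1 goes from 222 to 426 and then to 91.7, and Ddit4 from 268 to 859 and then to 507.

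Both genes rose at 30 min, Ddit4 by more, and at 120 min their directions from untreated were opposite. Within each array, the log2 value of Sgk1 minus that of Ddit4 averaged -0.26 (SD 0.20, n = 3) in untreated cells, -0.997 (SD 0.13, n = 3) at 30 min and -2.37 (SD 0.051, n = 3) at 120 min. This difference therefore moved by -0.74 at 30 min and by -2.11 at 120 min, with no overlap of arrays, and the two-sided exact permutation p was 0.1 for each, the smallest possible. It recombines the signals of Sgk1 and Ddit4 given above, and both genes were chosen with earlier results of these arrays known. It is therefore a description and adds no separate test. Only the shift of this difference between groups has meaning, since levels of different probe sets are not comparable.

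Fkbp5, the co-chaperone gene, did not pass at either time. Its signals were 122, 118 and 138 untreated, 141, 132 and 151 at 30 min, and 123, 149 and 161 at 120 min, and the groups overlapped. The changes were 0.16 ± 0.14 at 30 min and 0.18 ± 0.14 at 120 min (limma adjusted p = 0.688 and 0.537). Their 95% intervals allow folds of 0.908 to 1.37 and 0.924 to 1.40, so a rise as large as that of Ddit4 at either time lies outside them.

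Tsc22d3 gave low and scattered signals. They were 26.9, 19.5 and 24.3 untreated, 6.86, 25.03 and 31.7 at 30 min, and 8.94, 21.7 and 26.1 at 120 min, so 1 array in each treated group lay far below the others. The probe set exceeded the filter level of 20.5 on 6 of the 9 arrays. The changes were -0.22 ± 0.37 and -0.29 ± 0.37 (limma adjusted p = 0.828 and 0.733), with 95% intervals from -1.03 to 0.58 and from -1.09 to 0.51. A 2-fold fall is inside both intervals, and a 2-fold rise on this scale is outside them. The signals lie near the filter level, so little can be read for this gene at this precision. Without NECA 30 min replicate 1 the first change was 0.20, and without NECA 120 min replicate 1 the second was 0.017.

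Nr3c1, the receptor gene itself, was also near the filter level. Signals were 22.1, 19.2 and 17.2 untreated, 26.1, 22.6 and 9.33 at 30 min, and 12.2, 8.50 and 11.7 at 120 min. It exceeded 20.5 on 3 of the 9 arrays, the least that the filter allows, and none of these was a 120 min array. At 30 min the change was -0.066 ± 0.28 (limma adjusted p = 0.936). The direction at 30 min turned without NECA 30 min replicate 3 (0.23), with quantile normalization (0.019), with arrays scaled to 1 median (0.013) and with the Gapdh covariate (0.24). At 120 min all arrays lay below all untreated arrays, with a change of -0.55 ± 0.28 (95% interval -1.16 to 0.055) that did not pass (adjusted p = 0.374). Groups of arrays failed to overlap downward in this way for 13.0% of tested probe sets.

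All 5 probe sets passed the low-signal filter, so each was tested. At 30 min 2 of them were up and 0 down, where limma called 0.357% of tested probe sets up and 0 down (369 were lower at an unadjusted p under 0.05). At 120 min 1 was up and 1 down, against 1.83% and 1.54% of tested probe sets (144 up and 121 down, or 186 and 81 with arrays scaled to a common median). From 30 to 120 min 0 were up and 2 down, against 1.35% and 1.62%. The comparisons with untreated share the same 3 untreated arrays, so they are not independent. The median change of the 5 was 0.16 at 30 min and -0.29 at 120 min, beside -0.04 for all tested probe sets at either time. The genes were put together with earlier results of these arrays known, so these counts describe them and carry no test.

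**Figure D3:**
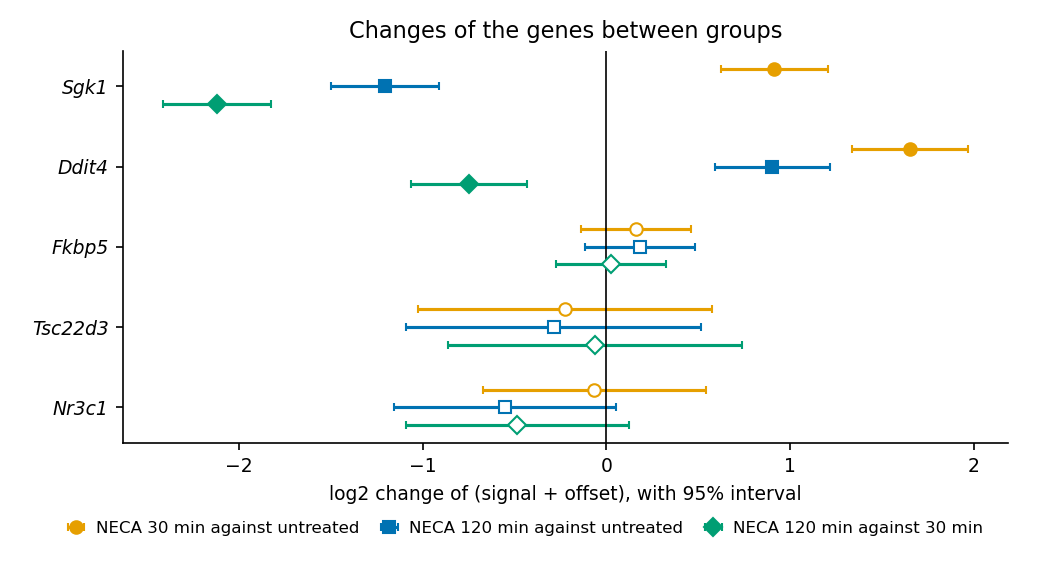
The horizontal axis is the log2 change of (signal + 7.93) with its 95% interval from limma, in rows by gene and by colour and shape for the 3 comparisons; filled symbols passed at an adjusted p of 0.05. Sgk1 has 0.91, -1.20 and -2.12, Ddit4 has 1.65, 0.90 and -0.75, and the intervals of the other 3 genes include 0.

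The wider set of glucocorticoid receptor target genes had calls in both directions. Of 36 listed genes other than these 5, 33 were on the array and 27 were tested. At 30 min 2 rose, 0 fell and 25 did not pass, beside 0.357% of all tested probe sets called up. At an unadjusted p under 0.05, 9 of the 27 were higher and 0 lower, beside 304 and 369 of all 7851 tested. The median change was 0.083, beside an overall median of -0.037. At 120 min 6 rose, 6 fell and 15 did not pass, beside 1.83% up and 1.54% down among all tested. There 7 of the 27 were higher and 10 lower at an unadjusted p under 0.05, beside 504 and 701 of all tested. The list's median there was -0.13, beside -0.043 for all tested probe sets. Rgs2, a regulator of G protein signalling, rose by 1.51 ± 0.20 at 30 min and 2.92 ± 0.20 at 120 min, from a signal of 5.06 ± 2.67 (SD, n = 3) that is below the filter level, so its fold depends on the offset. Cebpd, a C/EBP transcription factor gene, rose by 0.99 ± 0.14 and 2.12 ± 0.14, and its relative Cebpb rose by 1.11 ± 0.14 at 120 min after 0.65 ± 0.14 at 30 min without passing. Cebpd at 30 min did not pass when untreated replicate 2 was left out (limma adjusted p = 0.074) or when only the compared groups were fitted (0.0508). With the Gapdh covariate neither Cebpd nor Rgs2 passed at 30 min (limma adjusted p = 0.87 and 0.139).

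Among the 6 that fell at 120 min, Dusp1, which encodes a MAP kinase phosphatase, changed by -2.07 ± 0.11 (limma adjusted p = 6.37e-07), its mean signal going from 1262 ± 118 to 294 ± 16.2 (SD, n = 3 each). Its change at 30 min, 0.45 ± 0.11, did not pass (adjusted p = 0.286). The other calls at 120 min, named because they passed, were falls of Per1, Zfp36, Klf9, Rhob and Nr1d1 (-1.0 to -0.64) and rises of Errfi1 and the metallothionein genes Mt1 and Mt2 (0.60 to 0.91). The calls of Mt1, Mt2 and Nr1d1 were each lost in several alternatives, among them the fit with no filter (adjusted p = 0.0792, 0.104 and 0.0890). Without untreated replicate 1, Klf9 and Rhob did not pass (adjusted p = 0.0906 and 0.0668), nor did Klf9 without untreated replicate 2 (0.0902) or NECA 120 min replicate 3 (0.0785), nor Errfi1 without untreated replicate 2 (0.066). Klf9 and Rhob also did not pass at 120 min with the Gapdh covariate (limma adjusted p = 0.146 and 0.0668).

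The pathways in which Sgk1 and Ddit4 act were followed in lists of their other genes. The list of the mTORC1 pathway, which REDD1 restrains, also held other brakes of it. Of its 17 tested genes 0 passed at 30 min (3 were lower and 0 higher at an unadjusted p under 0.05). At 120 min 2 passed as lower, beside 1.54% of all tested probe sets called down (3 lower and 1 higher in the list at an unadjusted p under 0.05). Txnip, which encodes a thioredoxin-binding protein, changed by -1.62 ± 0.17 at 120 min, from 416 ± 44.9 to 132 ± 31.9 (SD, n = 3 each), while a second probe set was at -0.22 without passing (adjusted p = 0.59). Sesn1, a sestrin that, like REDD1, inhibits mTORC1, changed by -0.69 ± 0.12 (limma adjusted p = 0.00799), and with the Gapdh covariate it did not pass (-0.58, adjusted p = 0.095). Tsc2, whose protein REDD1 acts through, was at -0.40 and -0.26, while another of its probe sets was at 0.12 and 0.0016. Eif4ebp1, a translation repressor that mTORC1 phosphorylates, was at 0.14 and -0.35, and neither gene passed. The median of the list was -0.013 at 30 min and -0.082 at 120 min, beside -0.04 for all tested probe sets. Of 15 tested genes of SGK and AKT signalling, 0 passed at either time, with changes from -0.30 to 0.26 at 30 min and from -0.75 to 0.24 at 120 min. Ndrg1, whose protein SGK1 phosphorylates, stood at -0.13 and 0.24 (-0.18 and 0.32 by another probe set), the phosphatase gene Inppl1 at -0.25 and -0.61 (adjusted p = 0.0568 at 120 min), Pik3ca at -0.30 and -0.44 (0.22 and -0.30 by another probe set), and Pik3cd at -0.28 and -0.75. At an unadjusted p under 0.05, 0 differed at 30 min and 1 was lower at 120 min in that list.

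Of the relatives of Tsc22d3 and Fkbp5, 1 passed, as higher at 120 min, where limma called 1.83% of all tested probe sets up. Tsc22d1, of the same family as Tsc22d3, rose by 1.03 ± 0.16 at 120 min (limma adjusted p = 0.00247), from 586 ± 96.9 to 1195 ± 75.9 (SD, n = 3 each), and was at 0.33 ± 0.16 at 30 min without passing. Tsc22d4, the other tested relative, was at 0.022 and 0.0017. For the FK506-binding proteins, the family of Fkbp5, 0 of 10 passed at either time, with changes from -0.70 to 0.37 and from -0.34 to 0.21. Of them 1 was higher and 1 lower at an unadjusted p under 0.05 at 30 min, and 0 at 120 min. Those with the smallest p were Fkbp7 (-0.70 and -0.34), Fkbp2 (0.35 and 0.21), Fkbp9 (-0.22 at both times) and Fkbp1b (-0.0077 and -0.22). Among 14 chaperones of the receptor complex 0 passed (1 higher at 30 min and 1 lower at 120 min at an unadjusted p under 0.05), and their median changes were 0.057 and 0.068. Dnajb1 stood at 0.44 and 0.27, Hsp90aa1, which encodes an HSP90 chaperone of the receptor, at -0.14 and -0.42, Stub1 at 0.26 and 0.16, and Hspa1b at 0.12 and -0.20. Steroid receptors, enzymes of glucocorticoid metabolism and receptor coregulators gave 0 of 7 at either time (0 and 1 at an unadjusted p under 0.05). Hsd11b1, whose enzyme regenerates active glucocorticoid, was at -0.28 and -0.14, the corepressor gene Nrip1 at -0.059 and 0.44, Smarca4 at 0.18 and 0.098, and Med1 at 0.13 and 0.065. Pgr, Esr1, Esr2, Hsd11b2 and Ncoa2 of that list were below 20.5 on all arrays.

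**Figure D4:**
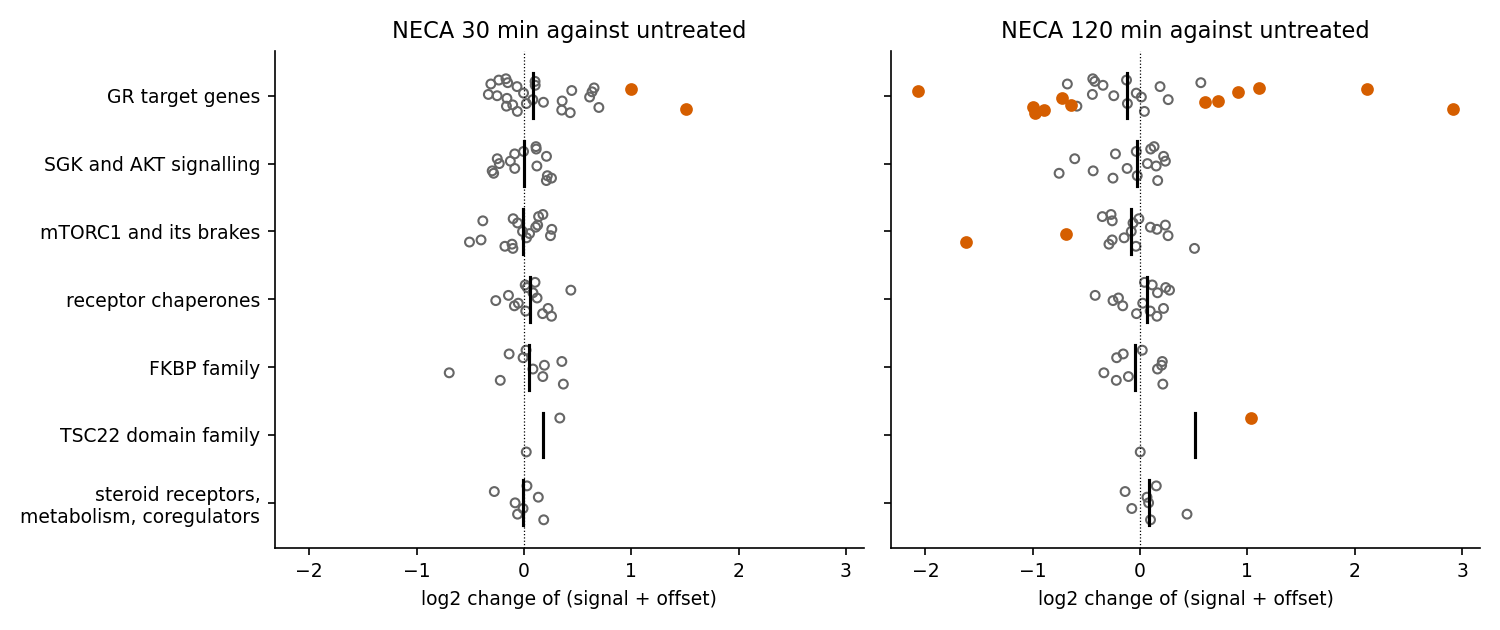
Each symbol is a tested gene by its log2 change of (signal + 7.93), at 30 min on the left and 120 min on the right, in rows by gene list; filled symbols passed limma at an adjusted p of 0.05, and black lines are list medians. At 120 min the 27 receptor (GR) target genes spread from -2.07 to 2.92 with 6 calls on each side, while the SGK and AKT, chaperone, FKBP and steroid receptor rows hold none.

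Likeness was measured as the Pearson correlation with each of 5890 other named genes over the 9 arrays, on the log2 scale, without p. All genes were read on the same 9 arrays, so any gene with the same group pattern scores high. The 5 genes most like Sgk1 were the clock gene Per1 (0.987), the AP-1 gene Fos (0.985), Mafk (0.983), which encodes a small Maf factor, the kinase gene Pim1 (0.978) and the AP-1 gene Junb (0.978). Fos stood at 1.42 at 30 min and -3.41 at 120 min, so it had a wider range than Sgk1, while Per1 (0.70 and -1.0) and Pim1 (0.44 and -0.76) did not pass at 30 min and passed as lower at 120 min. Junb passed as higher at 30 min (1.11) and as lower at 120 min (-0.95). Mafk passed at neither time (0.36 and -0.47), though it passed at 120 min when only the compared groups were fitted (limma adjusted p = 0.0384) or without NECA 30 min replicate 3 (0.0292). With the Gapdh covariate Fos did not pass at 30 min (1.17, limma adjusted p = 0.181), nor did Junb at 30 min (1.09, 0.685) or 120 min (-0.95, 0.0558). Junb at 30 min also did not pass without untreated replicate 1 (0.0826), untreated replicate 2 (0.0971) or NECA 30 min replicate 3 (0.0543).

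The 5 genes most like Ddit4 were the repressor gene Bhlhe40 (0.973), the immediate early gene Ier3 (0.969), the nuclear receptor gene Nr4a2 (0.953), Phlda1 (0.940) and Coil (0.927). Ier3 was at 1.37 and 0.82 and Nr4a2 at 1.98 and 1.06 at 30 and 120 min, and both passed at each time, as Ddit4 did. Phlda1 (0.63 and 0.36) and Coil (1.24 and 0.54) passed at neither time. In alternatives, Phlda1 passed at 30 min with a common median (limma adjusted p = 0.0385) and Coil with no intensity trend (0.0418). Bhlhe40 passed at 30 min (1.09) and stood at 0.56 at 120 min (limma adjusted p = 0.0543). With the Gapdh covariate Bhlhe40 did not pass at 30 min (1.11, adjusted p = 0.239). At 120 min it passed with a stricter filter, quantile normalization or a common median, and without NECA 30 min replicate 3 or NECA 120 min replicate 1 (adjusted p from 0.0310 to 0.0490 in these 5). The other 3 genes passed no test, and their likeness is given by name and highest value. Clptm1l (0.947), Ptpra, Psmd5, Psmc2 and Srm came first for Fkbp5, C8g (0.913), Pxn, Gspt2, Scin and Ranbp1 for Tsc22d3, and Plscr2 (0.940), Pter, Aspm, St6gal1 and Mxd4 for Nr3c1.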

How the data were processed

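RNA of 9 TtT/GF samples, 3 per group, was measured on Affymetrix MG_U74Av2 arrays. Each deposited value is a linear intensity that the authors made with MAS5, per the submitters' processing notes; the version is not given in the sources used here. Trimmed means were 100.06 to 100.07 on all arrays, so values were used as scaled. Detection calls were not used here. Groups came from sample titles, and genes from GEO's platform annotation, which can be old.

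Signals were turned into log2(signal + 7.93), the offset being the 25th percentile of all values, which understates folds near it. Probe sets above 20.5 (40th percentile) on at least 3 arrays were tested, 7851 of 12422 that are not controls. Tests used limma 3.58.1 in R 4.3.3 (lmFit on 9 arrays, eBayes with trend, two-sided, Benjamini-Hochberg over all tested, threshold 0.05), tested on simulated data. The number of arrays limits the precision.

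The 5 genes and the lists were chosen with earlier results of these data known. The rule named the 5 genes, up to 4 tested genes per pathway list with the smallest p against untreated, each by its probe set of highest mean, and the 5 genes most like each of the 5; for lists of cell markers, levels and counts are given instead, and further genes were named after their values were seen. Alternatives changed the offset, filter, scaling, samples, trend, a replicate block, the Gapdh ratio as a covariate, and left out each array.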

Additional observations from a re-analysis of the deposited data

Results flagged for a closer look

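The changes of Sgk1 and Ddit4 from untreated differed between the times, by the direct test of 120 min against 30 min. For Sgk1 the change from untreated at 120 min minus that at 30 min was -2.12 on the log2 scale (limma adjusted p = 1.58e-06), with all 3 arrays of 120 min below all 3 of 30 min. For Ddit4 it was -0.75 (limma adjusted p = 0.0133), also lower in 3 of 3 arrays. Between these times, arrays failed to overlap downward for 9.07% of tested probe sets. The Ddit4 call was lost without NECA 120 min replicate 1 (limma adjusted p = 0.0738) or replicate 2 (0.065).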

How the results depend on the processing

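For Sgk1 at 120 min (against untreated and against 30 min) and Ddit4 against untreated (both times), direction and call held in all 19 alternatives. Sgk1 at 30 min was 0.70 (adjusted p = 0.9275) with the Gapdh covariate and 0.84 to 0.99 with each array left out (adjusted p up to 0.0849). Ddit4 between the times ranged from -0.83 to -0.65 with arrays left out (adjusted p up to 0.0738). The other 3 genes passed in no alternative, and some of their changes turned direction. Tsc22d3 ranged from -0.51 to 0.20 at 30 min, from -0.49 to 0.017 at 120 min and from -0.49 to 0.24 between them with arrays left out, and was 0.13 between the times with the covariate. Nr3c1 at 30 min was 0.019 with quantile normalization, 0.013 with a common median, 0.24 with the covariate, and -0.13 to 0.23 with arrays left out. Fkbp5 between the times ranged from -0.054 to 0.13 and Sesn1 at 30 min from -0.015 (without NECA 30 min replicate 1) to 0.097. Probe sets called at 30 min were 28 up and 0 down, with 5 up under the covariate, 2 down with no filter, 1 down with only the compared groups and 1 down with no intensity trend, and 15 to 39 up and 0 to 46 down with arrays left out (15 up without untreated replicate 2, 46 down without NECA 30 min replicate 2, 1 down without NECA 30 min replicate 1 or NECA 120 min replicate 2). At 120 min they were 144 up and 121 down, with 186 and 81 (69.7% of calls up, against 54.3%) when arrays were scaled to a common median, 165 and 107 (60.7% up) with quantile normalization, 94 and 70 under the covariate, and 88 to 182 up and 60 to 135 down with arrays left out (88 up without untreated replicate 2 or NECA 120 min replicate 3; 60, 70 and 79 down without untreated replicate 1, untreated replicate 2 or NECA 120 min replicate 3). Between the times they were 106 up and 127 down, with 59 to 178 up and 87 to 129 down (178 without NECA 30 min replicate 2; 66, 60 and 59 without NECA 120 min replicate 1, 2 or 3). The causes were not tested. Scaling arrays to a common median moved the median change of all tested probe sets from -0.037 to 0.065 at 30 min and from -0.043 to 0.064 at 120 min. Nr3c1 and Tsc22d3 were not tested where a filter left them out. Of 985 further changes of other named genes, 925 kept direction and side of the threshold. At least 3 of the 5 genes most like Sgk1 or Ddit4 were kept when an array was left out.

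Deviations of same-numbered arrays from their group means had correlations from -0.172 to 0.23 over 9 pairs, and 1 of 9 arrays correlated best with its own number. With 3 arrays a group, these correlations cannot settle whether same-numbered samples were handled together, and the labels do not say. With the replicate block, 27 probe sets were up and 0 down at 30 min, 136 up and 111 down at 120 min, and 89 up and 109 down between the times. The log2 change of Sgk1 at 30 min was 0.91 (adjusted p = 0.02635) and the block changed no call of the 5 genes. The signals of Tsc22d3 and Nr3c1 near the filter level limit what can be seen for them.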
